A study of Mus musculus with 2 samples.

Results

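The cells described here are CD3-positive cells without CD4 or CD8: leukocytes from mouse tumours that carried CD3 transcripts and no counted transcript of CD4 or CD8. A cell was included when Cd3d, Cd3e and Cd3g together had at least 2 UMIs (unique molecular identifiers, tags that count each captured transcript once), Cd8a and Cd8b1 together 0, and Cd4 and Cd40lg together 0. It was left out when Foxp3, Il2ra, Ikzf2 and Ikzf4 exceeded 1 UMI, when Ncr1, Klrb1c and Klre1 exceeded 1, when C1qa, C1qb and C1qc exceeded 3, or when H2-Aa, H2-Ab1 and H2-Eb1 reached 10. The rule took 146 of 2611 cells, 37 of 1310 in the control library and 109 of 1301 in the Nrp1L/L library. The cells were thus selected on the measured UMIs of these genes, whose values are description only.

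The cells came from B16 melanomas grown in C57BL/6 mice, all female and 5 weeks old, and CD45+ cells were taken at day 14 for droplet sequencing. Each genotype gave 1 library, 2 in all: Foxp3Cre-YFP, the control, and Nrp1L/L Foxp3Cre-YFP. Both genotypes carry Cre with a yellow fluorescent protein under Foxp3, the gene of regulatory T (Treg) cells, and in the second Nrp1 is floxed, so that Cre can delete it in cells that have expressed Foxp3. With 1 library per genotype, effects of genotype, animal, tumour and library preparation cannot be told apart, no test was possible, and every interval below is a 95% interval for counting error alone. In sums over cells, fewer cells of a kind and less RNA per cell cannot be told apart.

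Most T cells carry an alpha-beta receptor and either CD4 or CD8. T cells with a gamma-delta receptor usually carry neither, and one branch of them makes interleukin-17 (IL-17), with the transcription factor Sox13, the scavenger receptor Cd163l1 (SCART1) and the kinase Blk among its markers. NKT cells, which see lipids on CD1d and depend on PLZF (Zbtb16), can also lack both co-receptors. In droplet data an ordinary T cell also appears without CD4 or CD8 when too few of its transcripts were captured. The genes of the T cell receptor chains were not analysed here, so gamma-delta and alpha-beta cells could be described by their programmes only.

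Promoter stretches of IL-17 programme genes are shown because these genes were counted together in a small subset of the cells. They cover the 250 bases before the transcription start, 5′ to 3′ on the gene's strand, from RefSeq on build GRCm38.p6, which held 3 of the 4 genes looked up. Capitals mark AGGTCA, a half-site of nuclear receptors, searched on both strands. The 2 stretches shown lie upstream of the annotated genes, at chr1:20730655-20730904 (plus strand) for Il17a and chr7:140218017-140218266 (plus strand) for Cd163l1.
Il17a: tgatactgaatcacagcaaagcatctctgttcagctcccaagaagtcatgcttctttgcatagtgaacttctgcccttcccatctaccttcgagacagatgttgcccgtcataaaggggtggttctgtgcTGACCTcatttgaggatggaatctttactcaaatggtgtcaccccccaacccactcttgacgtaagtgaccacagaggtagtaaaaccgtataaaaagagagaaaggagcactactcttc
Cd163l1: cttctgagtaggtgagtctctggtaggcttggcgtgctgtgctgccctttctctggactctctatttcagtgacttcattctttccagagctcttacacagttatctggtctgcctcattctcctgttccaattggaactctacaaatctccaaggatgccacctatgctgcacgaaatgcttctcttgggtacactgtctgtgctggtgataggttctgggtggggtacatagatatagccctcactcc
The Il17a stretch held the motif 1 time, on the opposite strand, beginning at position -120 from the start, and the Cd163l1 stretch held it 0 times. Among 32851 RefSeq windows of the same 250 bases, 14.0% held it. A match is a description and not a site.

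The cells were shallow. Their median depth was 4387 UMIs in the control library (range 3444 to 9411), against 8079.5 over the whole library. For Nrp1L/L cells the median was 3582 UMIs (range 2661 to 12428), against 5334 library-wide. Below their library's median lay 35 of 37 control cells (94.6%) and 95 of 109 Nrp1L/L cells (87.2%). For comparison, gates were built from the same gene sums. They were a CD8 gate (168 and 369 cells in control and Nrp1L/L), a CD4 gate (24 and 68) and a Treg gate (62 and 91). Added to these were an NK gate below the CD3 minimum (82 and 193) and a myeloid gate (457 and 132), and 819 cells fell in no gate. Median depth in the CD8 gate was 7798.5 and 6413 UMIs, and in the Treg gate 5661 and 4364. The NK gate, at 5193.5 and 4135 UMIs, lay nearest in the control library and the CD4 gate, at 4046.5, in the Nrp1L/L library. The Treg gate rested on Il2ra, Ikzf2 and Ikzf4 far more than on Foxp3, which had a UMI in only 2 control and 3 Nrp1L/L cells of that gate. The 2 libraries shared 3 barcodes, none of them in these cells.

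**Figure D1:**
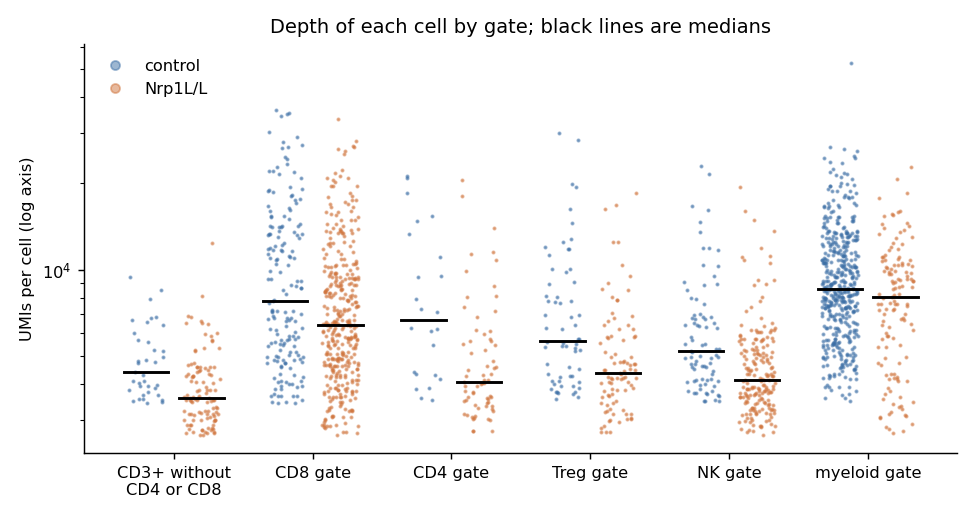
UMIs per cell (log axis) by gate in the control and Nrp1L/L libraries, 1 point per cell, black lines at the medians. The CD3-positive cells without CD4 or CD8 had medians of 4387 and 3582 UMIs, below those of the CD8 gate at 7798.5 and 6413.

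The CD3 genes were not marginal in most of these cells. Their 3 genes together had a median of 18 UMIs per control cell (lowest 8) and 13 per Nrp1L/L cell (lowest 2). Just inside the minimum of 2 UMIs were 0 control and 5 Nrp1L/L cells, and 21 control and 19 Nrp1L/L cells with 1 CD3 UMI met the rest of the rule. Cd3g, which encodes the gamma chain of CD3, was found in 36 of 37 and 104 of 109 cells, and Cd3e in 29 and 66. The signalling adaptor Lat, which the rule did not use, was found in 27 of 37 control cells (73.0%) and 78 of 109 Nrp1L/L cells (71.6%). Its level was 622 CPM in control cells and 593 CPM in Nrp1L/L cells, where CPM are the UMIs of a gene scaled to 1000000 UMIs of the group. Cd163l1, the remaining marker of the label, was found in 5 of 37 and 11 of 109 cells, so most of the cells lacked a UMI of it.

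How often would other T cells meet the rule if fewer of their transcripts had been counted? Every cell was thinned to 2500 UMIs and the rule applied again, and counts are the median of 10 draws. From the CD4 gate, 11 of 24 control cells (45.8%, 25.6 to 67.2; range over draws 8 to 15) and 15 of 68 Nrp1L/L cells (22.1%, 12.9 to 33.8; 7 to 18) then met it. From the Treg gate, 23 of 62 control cells (37.1%; 17 to 26 over draws) and 19 of 91 Nrp1L/L cells (20.9%; 16 to 22) did. CD8 gate cells entered far less often, 6 of 168 (3.57%) and 7 of 369 (1.90%). NK and myeloid gate cells could not enter. Both gates held only cells below the minimum of 2 CD3 UMIs, and thinning adds no UMIs. A larger share of the CD4 and Treg gate cells than of the CD8 gate cells thus met the rule at this depth. The CD3-positive cells without CD4 or CD8 were all deeper than this, with lowest depths of 3444 (control) and 2661 UMIs (Nrp1L/L). How often other T cells would meet the rule at the depth of those cells was not tested. Without thinning, Cd4 in the Treg gate had a UMI in only 23 of 62 control cells (37.1%) and 27 of 91 Nrp1L/L cells (29.7%). In all, 99 control and 162 Nrp1L/L cells met the rule after thinning.

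**Figure D2:**
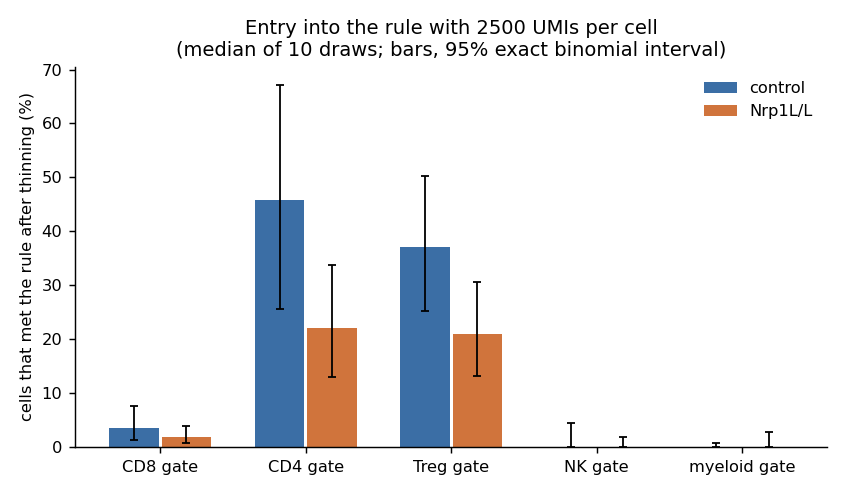
Percent of the cells of each gate that met the rule after thinning to 2500 UMIs (bars, median of 10 draws; lines, exact 95% binomial intervals of that median). The CD4 gate (45.8% control, 22.1% Nrp1L/L) and the Treg gate (37.1% and 20.9%) stand above the CD8 gate (3.57% and 1.90%). NK and myeloid gate cells lay below the CD3 minimum of the rule and could not enter.

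Each cell was also given to the gate whose summed profile fitted its UMIs best, with the genes of the rule left out. A T cell gate (CD8, CD4 or Treg) was the nearest for 33 of 37 control cells (89.2%, 74.6 to 97.0) and 91 of 109 Nrp1L/L cells (83.5%, 75.2 to 89.9). The NK gate was nearest for 4 control cells (10.8%) and 17 Nrp1L/L cells (15.6%), and the myeloid gate for 0 and 1. Among the T cell gates the Treg profile took 23 control and 47 Nrp1L/L cells, the CD4 profile 7 and 31, and the CD8 profile 3 and 13. That last split is weak, because the same method gave back to their own gate only 4.17% of control and 51.5% of Nrp1L/L CD4 gate cells. The shares were 67.7% and 58.2% for Treg gate cells, 85.7% and 86.2% for CD8 gate cells and 95.1% and 97.4% for NK gate cells. The Treg profile took 58.3% of control and 27.9% of Nrp1L/L CD4 gate cells. With all cells thinned to 2500 UMIs the CD8 profile took 45.9% (control) and 32.1% (Nrp1L/L), the Treg profile 40.5% and 29.4%, and the NK profile 2.70% and 6.42%.

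A small subset carried an IL-17 programme of the kind known from gamma-delta T cells. It was defined after the data were seen, as at least 2 UMIs over Cd163l1, Il17a, Blk and Sox13, and held 7 of 37 control cells (18.9%, 7.96 to 35.2) and 11 of 109 Nrp1L/L cells (10.1%, 5.15 to 17.3). Just below the limit, 1 control and 3 Nrp1L/L cells had exactly 1 UMI. The subset was shallow too, with medians of 3981 and 4253 UMIs. All 7 control cells of the subset fitted the Treg profile best, while of the 11 Nrp1L/L cells 9 fitted the CD4 profile and 2 the Treg profile. Genes of the IL-17 programme were kept in this fit, and the gates held them unevenly. Tmem176b was at 49.6 CPM in the Treg gate and 18.8 CPM in the CD4 gate for control. For Nrp1L/L it was at 18.6 and 71.6 CPM. Il17a was at 62.0 and 0 CPM for control and at 8.27 and 0 CPM for Nrp1L/L. The part of these genes in the split was not tested. Whether these cells carry a gamma-delta receptor was not tested.

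Il17a (ENSMUSG00000025929, chromosome 1, 20730905 to 20734496, plus strand, GRCm38) encodes the cytokine IL-17A. In the 7 control cells of the subset it had 17, 15, 15, 5, 7, 5 and 2 UMIs. In the 11 Nrp1L/L cells it had 20, 5, 16, 11, 8, 7, 0, 8, 0, 0 and 0. All Il17a UMIs of the CD3-positive cells without CD4 or CD8, 66 (control) and 75 (Nrp1L/L), lay in this subset. Il17a helped choose the subset, which by its definition took every cell with at least 2 Il17a UMIs, so its values there are description only. Over all the CD3-positive cells without CD4 or CD8 the Il17a level was 360 CPM (278 to 458) for control and 172 CPM for Nrp1L/L. In the subset alone it was 2337 and 1652 CPM. Elsewhere Il17a was near 0: 2 of 457 control myeloid cells had a UMI (0.438%), and it was at 1.11 and 0.342 CPM in the CD8 gate. The exception was the control Treg gate, with 30 UMIs in 2 cells, 29 of them in 1 cell.

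Cd163l1 (ENSMUSG00000025461, chromosome 7, 140218267 to 140231145, plus strand) encodes the scavenger receptor SCART1. In the control subset it had 7, 5, 2 and 3 UMIs in 4 cells and 0 in the other 3, and in the Nrp1L/L subset 3, 11, 2, 1, 3, 5, 5, 4 and 2 UMIs in 9 cells. It and Il17a were found together in 4 control and 5 Nrp1L/L cells, Cd163l1 alone in 1 and 6, and Il17a alone in 3 and 2. All but 1 control and 2 Nrp1L/L cells with Cd163l1 belonged to the subset, which by its definition took every cell with at least 2 Cd163l1 UMIs. Blk (ENSMUSG00000014453, chromosome 14, 63372836 to 63417037, minus strand), a Src-family kinase, was found in 3 of 7 and 6 of 11 subset cells. Sox13 (ENSMUSG00000070643, chromosome 1, 133382303 to 133424377, minus strand) was found in 1 and 2. Sox13 transcripts were thus scarce. Il17f, Il22 and Il1r1, other genes of IL-17-producing cells, had 0 UMIs in all 146 cells.

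**Figure D3:**
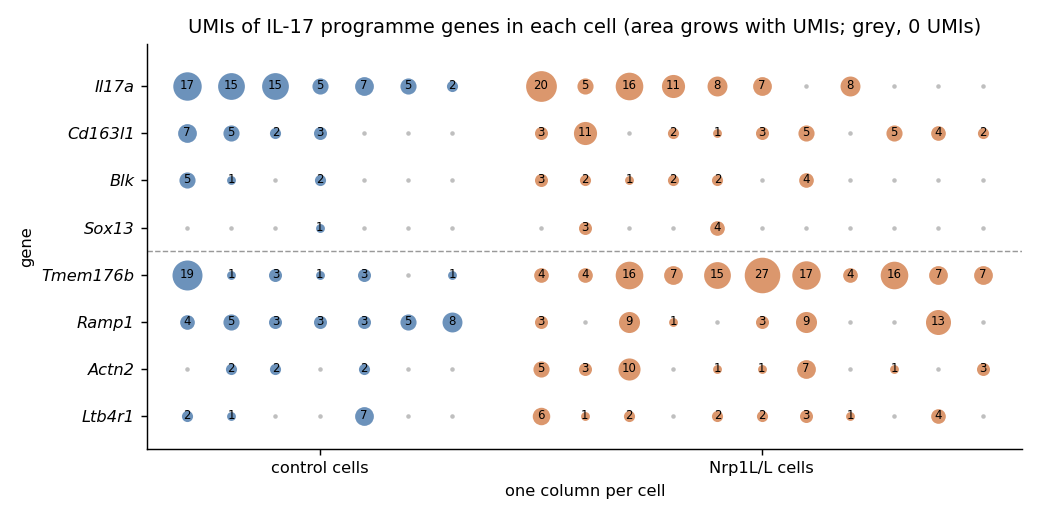
UMIs of IL-17 programme genes in each of the 7 control and 11 Nrp1L/L subset cells (1 column per cell; point area grows with the UMIs printed on it, grey dots are 0). The genes above the dashed line chose the cells; Tmem176b, below it, had a UMI in 6 of 7 and 11 of 11 cells.

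Genes that did not choose the subset also set it apart within the 146 cells. Tmem176b, a membrane protein gene, was at 991 CPM in the control subset and 135 CPM in the other control cells, and at 2731 and 133 CPM among Nrp1L/L cells. Log2 ratios were 2.87 (2.0 to 3.76) and 4.36 (3.88 to 4.85). Ramp1, part of the receptor for the neuropeptide CGRP, had a UMI in 7 of 7 control and 6 of 11 Nrp1L/L subset cells, and 13 of 30 and 18 of 98 others. Its log2 ratios were 2.28 (1.54 to 3.02) and 2.44 (1.82 to 3.05). The chemokine receptor Cxcr6 was 1.59 and 1.73 higher on the log2 scale, and the nuclear receptor gene Rora 1.96 and 2.52. Some effector genes had fewer UMIs in the subset, though not all: at least 2 UMIs over the granzyme genes were found in 2 of its 7 control cells and 1 of its 11 Nrp1L/L cells, against 10 of 37 and 21 of 109 of all the cells. Ccl5, a chemokine of effector T and NK cells, had 0 UMIs in the 7 control cells against 492 in the other 30 (3171 CPM). Among Nrp1L/L cells it had 9 UMIs in 5 of 11 subset cells against 2611 in the other 98, or 198 against 6700 CPM. The granule gene Nkg7 had 0 against 258 UMIs and 10 against 887, the costimulatory receptor Cd27 0 against 50 and 0 against 159, and Ly6c2 2 against 269 and 0 against 1080. These genes were picked for their size of difference, so they describe the subset and no test supports them.

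The same 4-gene sum reached 2 UMIs in 2 of 62 control and 1 of 91 Nrp1L/L Treg gate cells, in 0 and 1 CD8 gate cells, in 1 and 1 myeloid cells, and in no CD4 or NK gate cell of either library. Of all barcodes the subset made up 0.534% for control (0.215 to 1.10) and 0.846% for Nrp1L/L (0.423 to 1.51), a difference of 0.311 percentage points (-0.365 to 1.03) that counting error alone covers.

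Markers of NKT cells and of group 2 innate lymphoid cells were mixed. Against the CD8 gate, 8 of 19 measured NKT and innate-like genes were higher and 4 lower in both libraries, and 2 of 3 measured genes of the innate lymphoid list were higher, Rora and Gata3. Of all genes tested against that gate, 7.65% were higher and 10.1% lower, by 1.5-fold or more. Gata3, a transcription factor that type 2 lymphocytes share with other T cells, was found in 6 control and 11 Nrp1L/L cells, with log2 ratios of 1.4 (0.29 to 2.38) and 0.70 (-0.02 to 1.37). The 12 genes of that list summed to 371 and 230 CPM, against 67.8 and 102 CPM in the CD8 gate, 353 and 331 CPM in the CD4 gate and 393 and 721 CPM in the Treg gate. Zbtb16, which encodes PLZF, had 0 UMIs in the 37 control cells and 8 UMIs in 3 of 109 Nrp1L/L cells (2.75%), 1 of them in the IL-17 subset. Il1rl1, Il13 and Il5, defining genes of group 2 innate lymphoid cells, were at 0 in both libraries. A count of 0 UMIs in 37 and 109 cells allows levels of up to 16.4 and 6.90 CPM, taking 3 UMIs over the group. Inhibitory Ly49 receptors of NK cells and innate-like T cells were present in a minority: Klra7 in 4 of 37 (10.8%) and 12 of 109 cells (11.0%), Klra1 in 3 (8.11%) and 12 (11.0%), and neither in any cell of the IL-17 subset. Ly49 genes are close copies of each other, so reads could be split between them. Klra7 had a UMI in 4 of 457 control and 0 of 132 Nrp1L/L myeloid cells. The signalling adaptor Fcer1g was found in 15 control (40.5%) and 46 Nrp1L/L cells (42.2%), and its partner Tyrobp in 7 (18.9%) and 19 (17.4%), against all 82 and 193 NK gate cells for Tyrobp. Eomes, a transcription factor of NK and effector cells, was found in 2 and 3 cells.

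Markers of other lineages were lower than in the gates of those lineages. Summed over the 12 NK genes outside the rule, the level was 1107 CPM for control and 1777 CPM for Nrp1L/L cells, against 12118 and 20922 CPM in the NK gate. The 14 monocyte and macrophage genes summed to 2203 and 2848 CPM, against 21295 and 27939 CPM in the myeloid gate, and ranged from 0 to 8171 CPM over control cells and from 0 to 62762 CPM over Nrp1L/L cells. Csf1r, the receptor that defines macrophages, had 0 UMIs in control cells and 3 UMIs in 1 Nrp1L/L cell. The 6 B cell genes summed to 2 and 7 UMIs and the 6 granulocyte genes to 0 and 1. The part of such cells or of free RNA in the results below was not tested.

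Against CD8 gate cells of the same library, these cells carried less of the cell cycle and granzyme programmes and more interferon-response, immediate early and naive or memory transcripts. Over all 6291 genes with at least 20 UMIs in each library, 7.65% were higher by 1.5-fold or more in both libraries and 10.1% lower by as much, with medians near 0 (-0.06 and -0.06, log2, control and Nrp1L/L).

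Of 34 cell cycle genes 31 were lower in both libraries and 0 higher, with median log2 ratios of -1.84 and -2.27. Rrm2, a subunit of ribonucleotide reductase, had 0 UMIs in the control cells against 171 CPM in the CD8 gate. With the 0 set to 3 UMIs its log2 ratio was -3.39, and the upper limit was -3.08. In the Nrp1L/L cells Rrm2 was at 4.6 against 149 CPM. Ube2c, a ubiquitin-conjugating enzyme of mitosis, was at 21.8 against 296 CPM and 2.30 against 292 CPM. Birc5 (survivin) was at 38.2 against 304 CPM and 16.1 against 257 CPM. At least 2 UMIs over the 5 genes Mki67, Top2a, Ube2c, Cdk1 and Birc5 were found in 5 of 37 (13.5%) and 3 of 109 cells (2.75%), against 39.9% and 24.1% of CD8 gate cells. After thinning to 2500 UMIs the shares were 13.5% and 1.83% against 23.8% and 15.7%.

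Cytotoxic genes were split. Of 18 measured, 11 were lower and 3 higher, with medians of -1.05 and -1.21. Gzmb, which encodes granzyme B (ENSMUSG00000015437, chromosome 14, 56258838 to 56262260, minus strand), was at 393 CPM against 2044 CPM in the control library, a log2 ratio of -2.38 (-2.74 to -2.04). In the Nrp1L/L library it was at 333 against 4087 CPM, -3.62 (-3.86 to -3.38). Prf1, the pore-forming perforin, had 0 UMIs in the control cells and 2 UMIs in the Nrp1L/L cells, against 48.3 and 54.3 CPM. The chemokine gene Ccl4 was at 458 against 913 CPM and 349 against 3327 CPM. Gzma (granzyme A) and Xcl1 (a chemokine for dendritic cells) went the other way, with log2 ratios of 1.00 and 0.65 for Gzma and 1.09 and 1.5 for Xcl1. The Gzma values rest heavily on single cells. In the control library 1 cell held 23 of 25 Gzma UMIs, and in the Nrp1L/L library single cells held 93 and 81 of 211. Of 17 inhibitory receptor and exhaustion genes 6 were lower and 1 higher. Havcr2, which encodes the checkpoint receptor TIM-3, had 0 UMIs in the control cells against 53.3 CPM, and 6.90 against 98.1 CPM in the Nrp1L/L cells. Lag3 was at 120 against 255 CPM and 147 against 608 CPM.

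Interferon-response genes were higher for 16 of 24 measured and lower for 0, with medians of 2.0 and 0.84. Isg15, a ubiquitin-like protein induced by type I interferon, was at 567 against 110 CPM (control) and 637 against 292 CPM (Nrp1L/L). Ifit3 was at 322 against 59.99 CPM and 485 against 165 CPM. The immediate early list had 11 of 17 higher and 0 lower, with medians of 1.42 and 0.97. Fos, a transcription factor induced within minutes of a stimulus or of handling, was at 818 against 148 CPM and 830 against 251 CPM. The naive and memory list had 7 of 15 higher and 0 lower, with medians of 0.38 and 1.01. Klf2, a transcription factor of circulating T cells, was at 900 against 374 CPM and 2034 against 396 CPM, log2 ratios of 1.27 (1.01 to 1.51) and 2.36 (2.23 to 2.49). Il7r, the interleukin-7 receptor chain, was at 59.98 against 17.8 CPM and 159 against 38.6 CPM. Klf2 is not specific to T cells here, as the myeloid gate held 846 and 1480 CPM.

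Of 12 measured genes of the gamma-delta 17 programme 10 were higher and 0 lower, with medians of 2.79 and 2.95. Against the CD4 gate 3 of 8 were higher and 0 lower, with medians of 0.77 and -0.08. Against the Treg gate 6 of 12 were higher and 0 lower, with medians of 1.17 and 1.06. Per cell, the summed list had a median of 1373 CPM in control and 724 CPM in Nrp1L/L cells. Gate medians were 798 and 1076 CPM (CD8), 1532 and 1711 CPM (CD4) and 1389 and 994 CPM (Treg). The 10 genes ranked highest were Il17a, Tmem176b, Tmem176a, Cd163l1, Ramp1, Sepp1 (selenoprotein P), Rora, the interferon-induced GTPase Iigp1, Klra7 and Klra1. Their log2 ratios ran from 3.12 to 8.34 (control) and from 2.93 to 8.98 (Nrp1L/L). Besides Gzmb, the 10 ranked lowest were the cell cycle genes Rrm2, 2810417H13Rik, Ube2c, Ccna2, Cdca3, Birc5 and Tyms, with Wdr95 and the metallothionein Mt1. Without cells holding UMIs of the 5 cycling genes, 200 genes were higher and 180 lower in both libraries, against 481 and 635 with them. Leaving out cells also leaves fewer UMIs per gene. The number of genes tested without those cells is not given, so these counts cannot be compared as shares.

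**Figure D4:**
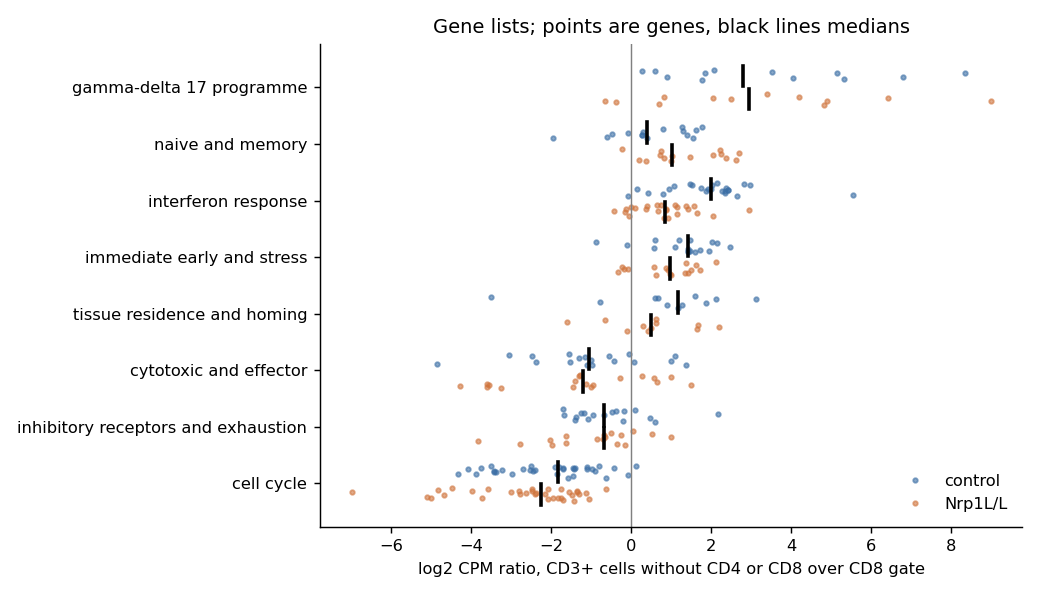
Log2 CPM ratio of the CD3-positive cells without CD4 or CD8 over CD8 gate cells for genes of 8 lists (x axis), control and Nrp1L/L apart; points are genes and black lines medians. The cell cycle list lies lowest, with medians of -1.84 and -2.27, and the gamma-delta 17 list highest, with 2.79 and 2.95.

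Against the Treg gate, 3.41% of 3666 genes were higher and 7.64% lower in both libraries. Of 8 measured Treg list genes 6 were lower and 0 higher, a direction that goes with the choice of that gate on Treg genes. Ctla4, an inhibitory receptor dense on Treg cells, was at 191 against 605 CPM (control) and 241 against 1062 CPM (Nrp1L/L). Il10, an anti-inflammatory cytokine, had 0 UMIs against 88.8 CPM, and 39.1 against 225 CPM. Areg, a growth factor of tissue Treg cells, was at 10.9 against 116 CPM and 52.9 against 356 CPM. Of 23 cell cycle genes 20 were lower and 0 higher, and Klf2 was higher by log2 1.13 and 1.21. Izumo1r, folate receptor 4 of Treg and helper cells, was lower by log2 -0.91 and -2.71.

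Against the CD4 gate, 3.76% of 2658 genes were higher and 6.58% lower in both libraries. At this depth 3 conventional CD4 genes could be compared, of which 0 were lower and 0 higher in both. Tnfrsf4 (OX40), a costimulatory receptor of CD4 cells, was at 840 against 730 CPM in the control library and at 246 against 1039 CPM in the Nrp1L/L library. The intervals of its log2 ratios, 0.20 (-0.13 to 0.53) and -2.08 (-2.40 to -1.77), did not overlap. Interferon-response genes were higher for 11 of 24 and lower for 0, and cell cycle genes lower for 15 of 18. Of the NK list, 4 of 4 measured genes were higher, among them Fcer1g at 371 against 104 CPM and 722 against 46.8 CPM.

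Against the NK gate, 6.58% of 3859 genes were higher and 8.91% lower in both libraries. NK list genes were lower for 10 of 11 and cytotoxic genes for 14 of 16, with 0 higher in either list. The NK gate was chosen on NK genes and on CD3 below the minimum. The directions of the NK list and of the CD3 list go with that choice and are description only. Gzma was at 136 against 5009 CPM and 485 against 12033 CPM. Tyrobp was at 409 against 2946 CPM and 278 against 3463 CPM. Of the CD3 and signalling list 7 of 14 genes were higher and 0 lower, among them Cd5, a brake on receptor signalling, which had 0 UMIs in control NK gate cells and 109 CPM here. Interferon-response genes were higher for 17 of 24 and lower for 0. Against the Treg gate 4 of 23 interferon-response genes were higher and 0 lower.

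The share of these cells was higher in the Nrp1L/L library. They made up 8.38% of barcodes (6.93 to 10.02) against 2.82% (1.996 to 3.87) in the control, a difference of 5.55 percentage points (3.82 to 7.36). T cells of every gate were more numerous there and myeloid cells fewer. The share was also taken among cells with at least 2 CD3 UMIs that met the rule's limits on the C1q and H2 genes. It then differed in proportion less: 14.2% (11.8 to 16.9) against 9.05% (6.45 to 12.3), 5.18 points (1.27 to 8.77). The Nrp1L/L library was the shallower, which moves with this difference. With every cell at 2500 UMIs the shares of all barcodes were 12.5% and 7.56%, a ratio smaller than before thinning. Nrp1, the floxed gene, had 10 UMIs in 6 of 37 control cells (54.5 CPM, 26.2 to 100) and 14 UMIs in 5 of 109 Nrp1L/L cells (32.2 CPM, 17.6 to 54.0). The intervals overlap, and whether the 3′ reads fall in the deleted part of Nrp1 was not tested.

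Between the libraries, the Nrp1L/L cells carried more naive or memory and Ccl5, Nkg7 and Gzma transcripts, and the control cells more of Tnfrsf4, Izumo1r, Tnfrsf18 and Pdcd1. Of 3688 genes with at least 20 UMIs, 23.1% were higher by 1.5-fold or more in the Nrp1L/L cells and 18.2% lower, so list counts are read against shares near these. The median gene differed by log2 0.03.

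Of 16 naive and memory genes 9 were higher and 0 lower, with a median of 0.96. Klf2 had 165 UMIs in 22 of 37 control cells and 885 UMIs in 82 of 109 Nrp1L/L cells, 900 CPM (768 to 1048) against 2034 CPM (1902 to 2173), a log2 ratio of 1.18 (0.94 to 1.43). Tcf7, which encodes TCF1, a transcription factor of naive and stem-like memory T cells, was found in 5 (13.5%) and 33 cells (30.3%), at 38.2 and 131 CPM, log2 1.78 (0.64 to 3.16). Its partner Lef1 was found in 4 (10.8%) and 23 cells (21.1%), log2 1.85 (0.72 to 3.23). Il7r was found in 4 and 26 cells, log2 1.40 (0.47 to 2.47). In the control cells these were few UMIs in few cells: 7 of Tcf7, 7 of Lef1 and 11 of Il7r, of which 1 cell held 42.9%, 57.1% and 63.6%. Thinned to 2500 UMIs, Tcf7 was found in 10.8% of control and 23.9% of Nrp1L/L cells. Without the IL-17 subset the list median was 0.68.

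Of 15 cytotoxic genes 6 were higher and 2 lower, with a median of 0.52. Ccl5 was found in 22 of 37 (59.5%) and 84 of 109 cells (77.1%), at 2683 and 6022 CPM, log2 1.17 (1.03 to 1.31). Ccl5 also had a UMI in 33.9% of control and 70.5% of Nrp1L/L myeloid cells, at 539 and 435 CPM. Gzma was found in 2 and 21 cells, at 136 and 485 CPM, log2 1.83 (1.23 to 2.49), and 1 control cell held 92% of its control UMIs. Ccl3 and Xcl1 were lower, log2 -1.12 and -0.95, and of the Ccl3 UMIs in control cells 97.1% lay in 1 cell. Without the highest cell of each library Ccl3 was higher in the Nrp1L/L cells, log2 3.61. Of the NK list, 4 of 6 genes were higher and 0 lower, with a median of 1.39.

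Some CD4 and Treg cell genes went the other way. All 3 measured conventional CD4 genes were lower, as were 3 of 6 Treg genes with 0 higher by 1.5-fold, and Tnfrsf4 and Izumo1r stand in both lists. Of the 6 Treg genes 1 lay above 0, Ctla4 at 191 and 241 CPM, log2 0.34 (-0.23 to 0.93). Il10, of the same list, had 0 and 17 UMIs, below the minimum of 20. Tnfrsf4 was found in 15 of 37 (40.5%) and 19 of 109 cells (17.4%), at 840 and 246 CPM, log2 -1.77 (-2.14 to -1.41), and -1.70 without the cell that held most in each library. Izumo1r, which encodes folate receptor 4, was found in 7 and 13 cells, log2 -1.40 (-2.20 to -0.60). Tnfrsf18 (GITR) was at 883 and 490 CPM, log2 -0.85 (-1.15 to -0.55). Pdcd1, which encodes PD-1, was found in 15 (40.5%) and 24 cells (22.0%), at 453 and 175 CPM, log2 -1.37 (-1.84 to -0.91). Of 11 cell cycle genes 6 were lower and 1 higher, with a median of -0.61. The interferon-response list had 6 of 25 higher and 1 lower, with a median of 0.17, and Isg15 did not differ beyond counting error, at 567 and 637 CPM (log2 0.17, -0.16 to 0.51).

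In the gamma-delta 17 list 4 of 16 genes were higher and 2 lower, with a median of -0.16. Il17a was lower over all cells, log2 -1.06 (-1.56 to -0.56), as its positive cells were 7 of 37 and 7 of 109. Cd163l1 did not differ beyond counting error, at 98.2 and 87.3 CPM (log2 -0.17, -1.01 to 0.73). Tmem176b was at 267 and 405 CPM, log2 0.60 (0.13 to 1.09), and Ramp1 at 360 and 225 CPM, log2 -0.68 (-1.14 to -0.20).

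**Figure D5:**
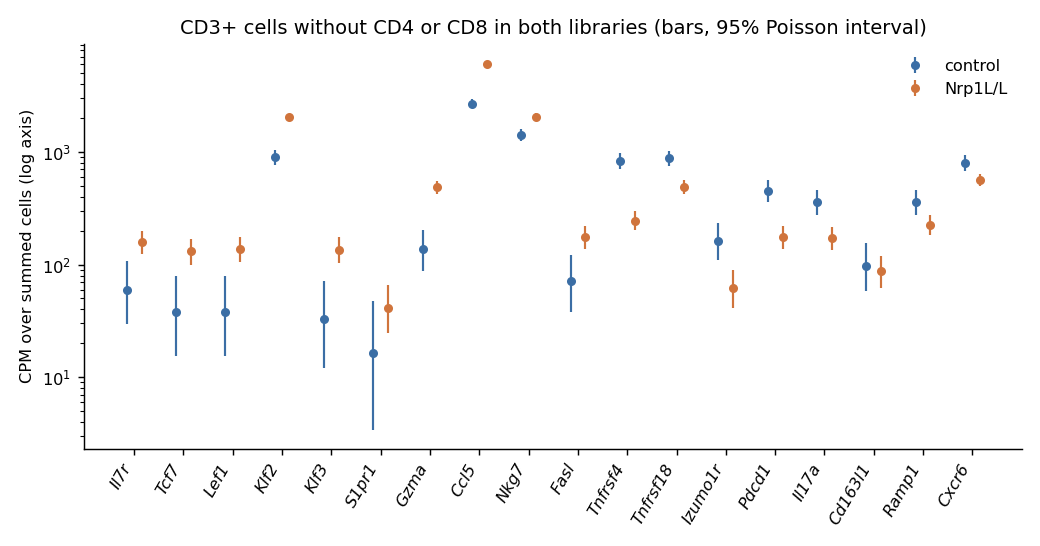
CPM (log axis) of 18 genes over the summed CD3-positive cells without CD4 or CD8 in the control and Nrp1L/L libraries; bars are 95% Poisson intervals. Klf2 stood at 900 against 2034 CPM and Tnfrsf4 at 840 against 246 CPM, with intervals that do not meet.

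Many of the genes ranked highest by size rested on 1 cell. The 10 ranked higher in the Nrp1L/L cells were Lyz2, Cxcl9, Plek, Lmna, Ythdf1, Ormdl3, Tppp3, Tcf3, Chil3 and Pgs1, and in 7 of them 1 cell held over 50% of the Nrp1L/L UMIs. The 10 ranked lower were Mrpl47, Hist1h2bc, Lrif1, Ly86, Irf8, Fdps, Snrpb2, Ddit4, Ctnna1 and Nrn1, and in 5 of them 1 cell held over 50% of the control UMIs. A single Nrp1L/L cell of 12428 UMIs, the deepest of these cells, held 524 of 552 Lyz2 UMIs (94.9%), 56 of Cxcl9 and 55 of Chil3, genes of monocytes and macrophages. It had 2 CD3 UMIs, fitted the myeloid profile best and was not among the highest 2% of doublet scores. Lyz2 stood at 109 CPM over control cells and 1269 CPM over Nrp1L/L cells, log2 3.54, and at log2 -0.61 without its highest cell in each library. In the control library Lyz2 lay at 1 or 2 UMIs in 16 of 37 control cells.

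The Nrp1L/L library also held 21 cells with fewer CD3 UMIs than any control cell, below 8. Of these, 5 fitted the NK profile and 1 the myeloid profile best, against 12 and 0 of the other 88. Tyrobp stood at 1327 CPM in the 21 cells and at 53.0 CPM in the other 88, and Gzma at 1444 and 279 CPM. Lat was found in 13 of 21 and 65 of 88. These levels rest heavily on single cells. Among the 21 cells 1 held 64 Tyrobp UMIs and 1 held 93 Gzma UMIs, and among the other 88 the highest cell held 5 and 81. Without the highest cell of each group, a setting added after the data were seen, Tyrobp stood at 589 and 39.8 CPM and Gzma at 244 and 53.6 CPM. The Lyz2-high cell was one of the 21.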

How the data were processed

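The authors deposited UMI counts per gene and barcode for 27998 genes. Per the submitters' processing notes, they used Cell Ranger 1.3 and mm10. Per the labels, 2600 cells were loaded per library and cDNA was amplified over 14 cycles. No barcode was removed. The members, gene lists and comparisons were chosen with earlier results of these data known. UMIs were summed per library and gate and scaled to CPM, with exact Poisson intervals. Log2 ratios carry exact conditional binomial intervals, while Clopper-Pearson limits were used for shares and Newcombe's method for their differences. The log2 ratios and their intervals were checked on simulated Poisson sums, which hold no spread between cells. The other intervals were not checked in this way. Named genes come from 24 lists and from the 10 higher and 10 lower genes ranked by the interval bound nearest 0, with at least 20 UMIs and 1.5-fold. Zero counts took a floor of 3 UMIs per group. Likeness is multinomial, with profiles shrunk by 10000 UMIs of the library's. Scrublet in scanpy 1.11.5 scored doublets, which were kept. TMM factors came from edgeR 4.0.16. Gene positions are from GENCODE on GRCm38. Control cells totalled 183380 UMIs and Nrp1L/L cells 435078. One item is not reported here.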

Additional observations from a re-analysis of the deposited data

Results flagged for a closer look

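Against the CD8 gate, 3 of 202 measured list genes lay above it in one library and below it in the other with intervals that exclude 0 on both sides. The chemokine receptor Cxcr6 had a log2 ratio of 0.59 (control) and -0.66 (Nrp1L/L). Id3, a transcription factor of memory T cells, was at -0.61 for control, with its 0 UMIs set to 3, and at 2.20 for Nrp1L/L. Ly6c2, a surface protein of memory and effector T cells, was at 0.26 and -0.24. The difference between the libraries was not tested. Such genes numbered 9 of 147 against the CD4 gate, 10 of 170 against the Treg gate and 4 of 172 against the NK gate. These counts cover list genes only. No share over all measured genes stands beside them, so they are description only.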

How the results depend on the processing

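No paired analysis was possible because each genotype had 1 library. The planned classes by T cell receptor transcript were not run. The excess share stayed positive under every rule tried: 7.56 points with CD4 and CD8 sums of at most 1 each, and within counting error of 5.55 under the others. Thinned to 2500 UMIs, a T cell gate was nearest for 97.3% (control) and 92.7% (Nrp1L/L), the CD8 gate for 45.9% and 32.1%, Treg 40.5% and 29.4%, NK 2.70% and 6.42%. Without cycling cells, genes differing in both libraries were 200 higher and 180 lower than CD8, 90 lower than CD4 and 100 lower than Treg. These counts, and those between the libraries that follow, stand without the number of genes tested and cannot be read as shares. Between the libraries 546 were higher and 437 lower after thinning, and 348 lower without each gene's highest cell. That last setting, chosen after the data were seen, takes more from 37 cells than from 109 and moved the median of all genes to 0.16; list medians became 1.07 for cytotoxic, 1.6 for naive and memory, -0.61 for monocyte and 0.44 for dendritic genes, and Lyz2 turned to -0.61 and Cxcl9 to -0.51. Without the IL-17 subset the naive and memory median was 0.68 and the dendritic 0.42. With at least 50 UMIs the ILC2-like median was -1.28, and with at least 1 UMI the monocyte median 0.60. A CD3 minimum of 1 turned Lyz2 to -0.30, Chil3 to -1.24, Ly86 to 0.17 and Irf8 to 0.19, and a minimum of 3 turned Lyz2 to -0.68 and Cxcl9 to -0.42. Of 197 named gene values under these settings 164 kept direction and size, 25 moved and 8 reversed. Other scalings moved all genes by at most 0.11, lowest at -0.11 for the Nrp1L/L cells over the CD4 gate.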
